A study of Mus musculus with 6 samples.

Results

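Marker genes of the cartilage and tendon lineages were followed in 2T3 cells, a clonal pre-osteoblast line from mouse calvaria immortalised with a viral T antigen, after culture in a rotating wall vessel or in static culture. The set held 10 genes, named by symbol and not by their signal: the transcription factor genes Sox9, Sox5 and Sox6 and the matrix genes Acan, Col2a1 and Col10a1 of cartilage, and the transcription factor genes Scx, Mkx and Egr2 and the membrane glycoprotein gene Tnmd of tendon. Every probe set that the platform annotation assigned to these symbols was kept, 23 of the 45037 that were not array controls. The rotated group held 3 samples from cells kept for 3 days in the rotating wall vessel, a culture chamber full of medium whose slow turning serves as a ground model of microgravity. The static group held 3 samples of the same cells and passage range without rotation, also for 3 days. All samples were of a single cloned line with no further agent or genetic change named in the labels. The titles put each sample in its group, but simulated microgravity is named in the source field of static 2 and of static 3, and R in the titles of the other samples was read as rotated. The labels do not state whether separate cultures were used, and the p-values then describe the spread of these 6 samples alone, which may be technical.

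Sox9 is the transcription factor that commits skeletal progenitors to the cartilage fate. Sox5 and Sox6 are related proteins that bind beside it and strengthen its action on cartilage matrix genes such as Col2a1, the chain of type II collagen, and Acan, the core protein of aggrecan, while Col10a1 encodes the collagen of hypertrophic cartilage. In tendon, the factors Scx, Mkx and Egr2 act on collagen and proteoglycan genes, and Tnmd, tenomodulin, is a late marker of tendon cells that depends on Scx. Osteoblasts arise from progenitors shared with these lineages.

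Each array gave 1 deposited signal per probe set on a linear scale, and differences are given as log2 rotated minus static after adding 16.6 to each signal and quantile normalization. A probe set was called dim when its mean normalised log2 value lay below 5.96, the 40th percentile of all probe sets, and on this offset scale differences of dim probe sets are understated. By this limit 14 of the 23 probe sets were not dim and 9 were dim. All 4 probe sets of Sox6 and the probe set of Col10a1 were dim, so for these genes no lineage label rests on a clear signal. Of the osteoblast markers, 16 of 18 were measured and 14 of these were not dim, with Col1a1, a chain of bone collagen, at 12.52 ± 0.79 in rotated and 13.31 ± 0.17 in static samples (normalised log2 signal, SD, n = 3 each) and Sp7, osterix, at 7.38 ± 0.25 in rotated and 8.23 ± 0.55 in static samples. The summed signal of the osteoblast list was 57308.7 to 73664.4 in rotated samples and 78223.3 to 87232.1 in static samples. Most of this came from Sparc and Col1a2. Sparc gave 20884.6 to 28989.5 in rotated and 27601.2 to 30957.4 in static samples, and Col1a2 22048.3 to 26251.0 and 24604.8 to 29556.8. These deposited signals of either gene overlapped between the groups, but after quantile normalization all rotated values lay below all static values. The highest rotated and lowest static log2 values were 14.74 and 14.88 for Sparc and 14.65 and 14.73 for Col1a2. Over 18193 genes 6.62% lay wholly lower in this way. Alpl gave 34.7 to 93.7 in rotated and 62.7 to 103.6 in static samples. Of the endothelial markers 6 of 7 were dim, and of the skeletal muscle markers 8 of 10. At an unadjusted p under 0.05 in limma, 0 of the 7 endothelial markers were lower or higher. Of the 10 muscle markers 1 was lower (10%) and 1 higher (10%), both dim, against 3.59% and 3.94% of 18193 genes. The endothelial list summed to 164.0 to 249.7 in rotated and 190.0 to 403.6 in static samples, and the muscle list to 234.6 to 390.5 in rotated and 285.4 to 469.8 in static samples. Of 7 adipocyte markers measured 1, Fabp4, was lower at an unadjusted p under 0.05, and of 7 haematopoietic markers 0 were, against 3.59% of 18193 genes lower at that p. Of the adipocyte markers 3 of 7 were dim, and of the haematopoietic markers 2 of 7. The adipocyte list summed to 4654.2 to 5132.8 in rotated and 4753.7 to 6731.6 in static samples. The haematopoietic list summed to 3449.2 to 4820.4 in rotated and 3022.1 to 4683.0 in static samples. Rotated 1 and static 1 stood apart from the other arrays. The 3' over 5' signal ratio of the actin controls reached 3.21 in rotated 1. It was 1.57 for rotated 2 and 1.48 for rotated 3, against 1.29 to 1.37 in static samples. The 10th percentile of signal was 4.50 to 7.20 in rotated samples, against 22.1 in static 1 and 4.90 and 5.80 in static 2 and static 3.

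No cartilage or tendon marker passed the test over all probe sets after 3 days of rotation. The tendon marker Tnmd showed the largest difference among the 23 probe sets, with signals 3.22-fold lower in rotated samples on the offset log2 scale, and it was the single probe set at an unadjusted p under 0.05. Both probe sets of the tendon factor Egr2 and 4 of the 5 probe sets of Sox5 that were not dim stood lower in value. The Sox9 probe sets stood on opposite sides, and Col2a1, Scx, Mkx and Acan varied as much between samples of a group as between the groups.

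**Figure D1:**
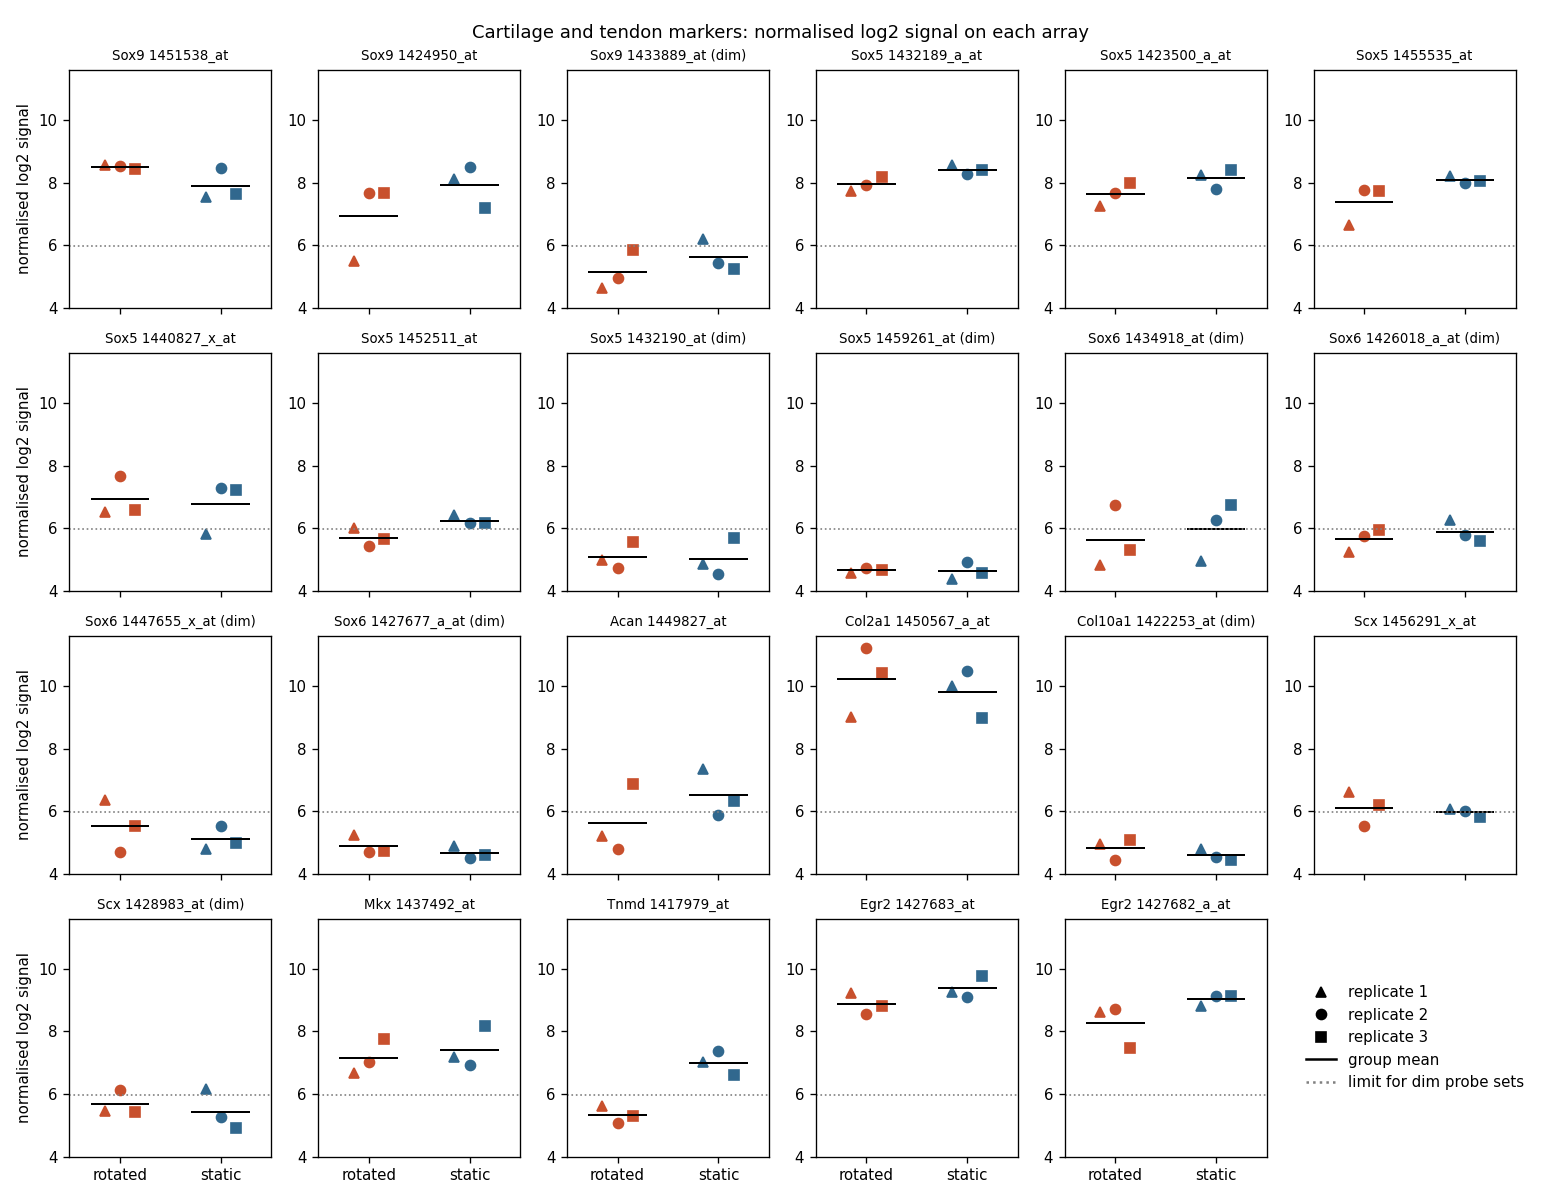
Normalised log2 signal (vertical axis) of each of the 23 probe sets on each array, rotated samples at the left and static samples at the right of each panel, with marker shape for the replicate number, a bar for the group mean (n = 3 each) and a dotted line at 5.96, the limit for dim probe sets. In the Tnmd panel all 3 rotated points lie below the dotted line and all 3 static points above it.

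Across all 45037 probe sets limma called 0 at an adjusted p under 0.05 (0% of those tested), the lowest adjusted value being 0.279. An unadjusted p under 0.05 was reached by 3175, 7.05% of the table, with 1553 lower (3.45%) and 1622 higher (3.6%) in rotated samples. With the values as deposited, 1771 were lower and 1105 higher, the median difference over all probe sets was -0.11, against 0.0058 after quantile normalization, and 1 probe set passed, that of Islr. Of the 23 member probe sets 1 was lower (4.35%) and 0 were higher at that unadjusted p, a share near the background. The rotated values lay wholly below the static values in 5 of the 23 (21.7%), against 6.43% of all probe sets, and wholly above in 0, against 6.57%. These 5 are 3 probe sets of Sox5 and 1 each of Tnmd and Egr2, so they stand for 3 genes, and the Sox5 probe set 1452511_at overlapped in its deposited signals. With the replicate number as a block, 3 member probe sets had an unadjusted p under 0.05, namely that of Tnmd and both of Egr2, again with 0 members past the adjusted threshold. Over the whole table the block gave 5004 probe sets (11.1%) at an unadjusted p under 0.05 and 2 past the adjusted threshold, in the genes Ogn and Aspn (chosen after their values were seen, as was Islr). The member count was 4 without rotated 1, 2 without static 2, 2 without rotated 2 and 2 without rotated 3. In the same order, the lower and higher counts over all probe sets were 920 and 979, 1499 and 1664, 1453 and 1353, and 2090 and 2144. Taking the brightest probe set of each gene, the median difference of the 10 genes was -0.31, against 0.0081 over 18193 genes, and it was -0.06 without rotated 1 and 0.0095 without static 3.

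**Figure D2:**
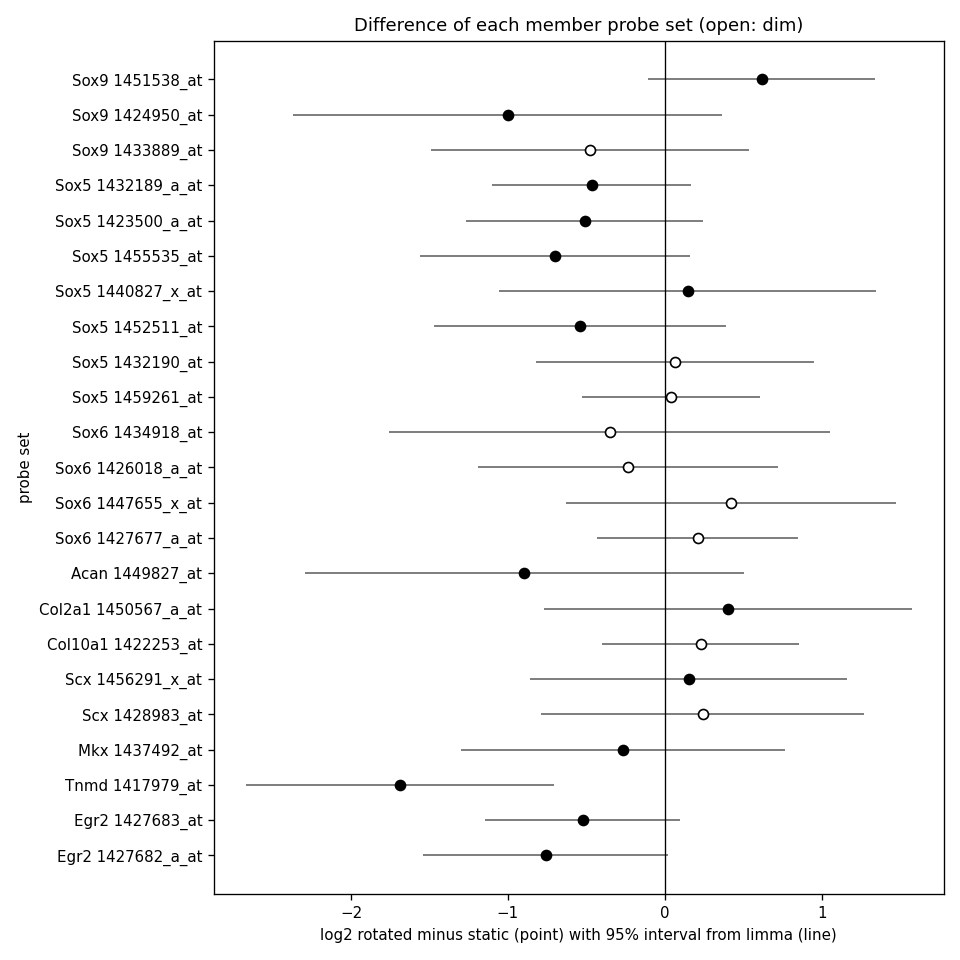
Log2 rotated minus static of each member probe set (horizontal axis), with the 95% interval from limma as a line, filled points for probe sets that were not dim and open points for dim ones. The interval of Tnmd, from -2.66 to -0.71, is the only one that does not reach 0.

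Tnmd encodes tenomodulin, a transmembrane glycoprotein of tenocytes. Its probe set 1417979_at gave signals of 35.4, 15.7 and 15.3 in rotated 1, rotated 2 and rotated 3, against 162.5, 138.4 and 72.1 in static 1, static 2 and static 3. The groups did not overlap, and the highest rotated signal, that of rotated 1, was below the lowest static signal, that of static 3. The log2 difference was -1.69 ± 0.44 (limma's moderated SE), with an unadjusted p of 0.00317, the 209th smallest of 45037, and an adjusted p of 0.665. The rotated mean of 5.32 (normalised log2) lay below the limit for dim probe sets and the static mean of 7.01 above it, so the 3.22-fold value is no exact ratio of transcripts. The difference ranged from -1.99 with a smaller offset to -1.11 with a larger one, and its unadjusted p stayed under 0.05 in each of the 18 alternatives that kept the probe set. Without rotated 1, whose actin ratio was the highest, it was -1.83 ± 0.49. In bulk RNA, fewer cells that express a gene and less of its transcript per cell cannot be told apart.

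By the distance between array profiles, 3 genes stood nearest to Tnmd among 12553 other genes that were not dim. They were Rspo2, a secreted Wnt agonist, at a root mean square distance of 0.18 on the log2 scale over 6 arrays, Kcnj4, an inward rectifier potassium channel, at 0.28 and Nid2, a basement membrane nidogen, at 0.31. The profile of Tnmd itself had a root mean square spread of 0.89 about its mean. Rspo2 differed by -1.52, Kcnj4 by -1.55 and Nid2 by -1.31 between rotated and static samples. The choice of genes by their distance from Tnmd makes similar differences likely, so these values are no separate evidence.

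Egr2, also known as Krox20, is a zinc finger factor of tendon, of myelinating Schwann cells and of the immediate early response. Probe set 1427682_a_at gave signals of 333.0, 400.6 and 153.4 in rotated 1, rotated 2 and rotated 3, against 451.0, 546.5 and 574.5 in static 1, static 2 and static 3. All rotated signals were below all static ones, and rotated 3 was the lowest. Its log2 difference was -0.76 ± 0.35, with a 95% interval of -1.53 to 0.01 and an adjusted p of 0.708 in limma. The other probe set, 1427683_at, gave 519.5, 358.4 and 450.6 in rotated 1, rotated 2 and rotated 3, against 608.4, 530.5 and 902.8 in static 1, static 2 and static 3. These deposited signals did not overlap either, but after quantile normalization rotated 1 (9.22) lay above static 2 (9.10). Its log2 difference was -0.52 ± 0.28 with an adjusted p of 0.727. With the replicate block the differences had standard errors of 0.30 and 0.22 and unadjusted p-values of 0.0378 and 0.0479. Without rotated 3 the difference of 1427682_a_at was -0.37, and without static 3 that of 1427683_at was -0.33. Both probe sets kept the lower direction in every alternative tried.

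Of the other Egr family genes and cofactors, Egr1, the family member best known as an early response gene, differed by 0.04 ± 0.39 and Egr3 by 0.23 ± 0.29, with the other probe set of Egr3 at -0.28. Nab1 and Nab2, corepressors that bind Egr proteins, differed by 0.29 ± 0.19 and -0.38 ± 0.27, and Ddx20, a helicase that interacts with Egr2, by -0.21 ± 0.21. Of the 6 genes on this list 0 had an unadjusted p under 0.05, against 7.05% of all probe sets. With the replicate block 1 did, Nab2, with a p of 0.0384, against 11.1% of all probe sets. Whether Egr2 differs from its relatives was not tested. Of the Schwann cell markers 7 of 10 were measured and 2 of these were dim. Their summed signal was 3803.7 to 5820.3 in rotated samples and 5962.5 to 7431.2 in static samples. Most of this came from Pmp22, a myelin protein gene that many other cell types also express, with 3269.1 to 5356.3 in rotated and 5118.7 to 7001.0 in static samples. Without Pmp22 the sums overlapped, at 368.4 to 534.6 in rotated and 331.1 to 843.8 in static samples. Of the 7 genes 3 stood lower and 4 higher, with a median of 0.11, and 0 had an unadjusted p under 0.05, or 1, Pmp22, with the replicate block. Pmp22 differed by -0.49 ± 0.22, S100b by -0.81 ± 0.50, Sox10, the defining glial factor, by -0.17 ± 0.45 and the receptor gene Erbb3 by 0.73 ± 0.39, with its other probe set lower. The myelin gene Mbp differed by 0.11 ± 0.52 while 4 of 7 further Mbp probe sets were on the lower side, and the dim probe sets of Mag and Foxd3 at 0.90 ± 0.42 and 0.19 ± 0.34. Their part in the Egr2 values was not tested. The profiles nearest to that of Egr2 probe set 1427683_at belonged to Adam5 at a distance of 0.13, Tnfaip6, a hyaluronan-binding protein gene, at 0.13 and Lum, the matrix proteoglycan lumican, at 0.15, against a spread of 0.38 in Egr2.

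The promoter sequences of Tnmd and Egr2 are shown because these genes gave the smallest p-values among the members. RefSeq promoter entries of build GRCm38.p6 were found for 6 of the 10 genes. The sequences cover the 250 bases before the annotated start, on the plus strand, at chrX:133850758-133851007 for Tnmd and at chr10:67537680-67537929 for the most downstream of 5 start sites listed for Egr2. Capitals mark matches, on either strand, to the E-box CANNTG that basic helix-loop-helix factors such as Scx bind, to the Sox motifs ACAAAG and ACAATG, to the Egr motif GCGNGGGCG, or to the CArG box of serum response factor.
Tnmd: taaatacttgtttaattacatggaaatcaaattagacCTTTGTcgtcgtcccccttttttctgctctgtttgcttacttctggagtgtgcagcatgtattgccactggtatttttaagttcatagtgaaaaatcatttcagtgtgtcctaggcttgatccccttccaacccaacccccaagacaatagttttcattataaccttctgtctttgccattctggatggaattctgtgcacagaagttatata
Egr2: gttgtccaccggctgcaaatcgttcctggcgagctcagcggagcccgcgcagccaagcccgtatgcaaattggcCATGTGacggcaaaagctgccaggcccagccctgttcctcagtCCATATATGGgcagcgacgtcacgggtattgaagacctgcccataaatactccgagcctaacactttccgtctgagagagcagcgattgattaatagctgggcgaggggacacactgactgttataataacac
The Tnmd window held 1 match, to the Sox motif ACAAAG on the minus strand, a motif found in 16.46% of 32841 windows of this length. The Egr2 window held 1 E-box, found in 66.23% of windows, and 1 CArG box, found in 1.47%. The motif ACAATG was found in 10.69% of windows and the Egr motif in 4.7%. No motif overlapped another in these windows. A match is a description of the letters and says nothing of binding in these cells.

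Sox9 was represented by 3 probe sets, which stood on opposite sides. Probe set 1451538_at gave 316.9, 346.2 and 333.4 in rotated 1, rotated 2 and rotated 3, against 212.5, 332.1 and 182.4 in static 1, static 2 and static 3. The rotated signals lay close together, and static 2 was level with them. The log2 difference was 0.62 ± 0.32, with an adjusted p of 0.727 in limma, and 0.91 ± 0.34 without static 2. Probe set 1424950_at gave 30.6, 177.7 and 181.1 in rotated 1, rotated 2 and rotated 3, against 294.8, 340.1 and 120.9 in static 1, static 2 and static 3. Rotated 1 was the lowest of the 6 by a wide margin, and static 3 lay below the other rotated samples. Its log2 difference was -1.0 ± 0.61 (adjusted p 0.748), -0.27 without rotated 1 and 0.12 with the actin ratio of each array as a covariate. The actin ratio of 3.21 in rotated 1 stands beside this value, and its part was not tested. The dim probe set 1433889_at differed by -0.48 ± 0.45. The mean over the 3 probe sets gave -0.29.

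Sox5 had 7 probe sets, of which 5 were not dim. Probe set 1432189_a_at, the brightest, gave 180.4, 218.6 and 275.5 in rotated 1, rotated 2 and rotated 3, against 383.8, 286.4 and 335.0 in static 1, static 2 and static 3. The groups did not overlap, although rotated 3 was close to static 2. Its log2 difference was -0.47 ± 0.28, with a 95% interval of -1.10 to 0.16 and an adjusted p of 0.748 in limma. Probe set 1455535_at gave 86.9, 195.1 and 192.8 in rotated 1, rotated 2 and rotated 3, against 313.1, 230.2 and 252.2 in static 1, static 2 and static 3. These groups did not overlap, and rotated 1 was the lowest. The log2 difference was -0.70 ± 0.39, -0.32 without rotated 1 and -0.14 with the actin covariate. Of the other probe sets that were not dim, 1423500_a_at differed by -0.51 ± 0.34 and 1452511_at by -0.54 ± 0.42, while 1440827_x_at differed by 0.15 ± 0.54. The suffix of that probe set marks probes that can also match other transcripts. The dim probe sets 1432190_at and 1459261_at differed by 0.06 ± 0.40 and 0.04 ± 0.25. The profiles nearest to that of 1432189_a_at were those of Gstz1 at a distance of 0.04, E2f1 at 0.05 and Atp9b at 0.06, against a spread of 0.28.

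Sox6, the partner of Sox5, was dim on each of its 4 probe sets, and their deposited signals lay between 5.6 and 86.5 in rotated samples and between 3.6 and 96.4 in static samples. The differences were -0.35 ± 0.63 for 1434918_at, -0.23 ± 0.43 for 1426018_a_at, 0.42 ± 0.47 for 1447655_x_at and 0.21 ± 0.28 for 1427677_a_at. The groups overlapped on every one of these probe sets. Among the other Sox proteins of these subfamilies, Sox8 was dim at 0.44 ± 0.36, Sox10 differed by -0.17 ± 0.45 and Sox13 by 0.07 ± 0.52.

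Col2a1, the collagen of cartilage, varied widely within both groups. Its probe set 1450567_a_at gave 444.4, 2387.4 and 1407.7 in rotated 1, rotated 2 and rotated 3, against 993.8, 1395.0 and 518.0 in static 1, static 2 and static 3. Rotated 2 held the highest signal and rotated 1 the lowest, so the static samples lay inside the rotated range. The log2 difference was 0.40 ± 0.52, with a 95% interval of -0.76 to 1.57 and an adjusted p of 0.870 in limma. It was 1.01 ± 0.42 without rotated 1 and 1.32 ± 0.48 with the actin covariate, with unadjusted p-values of 0.0429 and 0.0243, and -0.10 without rotated 2 and -0.01 without static 3. Acan, aggrecan, gave 21.4, 9.5 and 85.4 in rotated 1, rotated 2 and rotated 3, against 191.3, 34.2 and 56.3 in static 1, static 2 and static 3. Rotated 3 lay above static 2 and static 3, and static 1 was the highest. Its log2 difference was -0.89 ± 0.63 (adjusted p 0.767), -1.52 ± 0.59 without rotated 3 and -0.48 without static 1, the array with the raised low end of signal. Col10a1, the collagen of hypertrophic cartilage, gave 14.6, 3.6 and 10.9 in rotated 1, rotated 2 and rotated 3, against 27.2, 3.9 and 3.4 in static 1, static 2 and static 3, all in the dim range (0.23 ± 0.28). The profiles nearest to Acan were those of Tnik at 0.25, Ndnf, a secreted neurotrophic factor gene, at 0.25 and Prss35 at 0.26, against a spread of 0.89. Those nearest to Col2a1 were those of Klk1b21 at 0.23, A030001D20Rik at 0.33 and 2410004P03Rik at 0.35, against a spread of 0.81. The nearest to Sox9 probe set 1451538_at were 1700010B08Rik at 0.13, Gm32031 at 0.13 and Tcf21, a basic helix-loop-helix factor gene, at 0.14, against a spread of 0.43.

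Scx, scleraxis, the basic helix-loop-helix factor that marks tendon progenitors, gave 85.7, 27.8 and 44.0 on probe set 1456291_x_at in rotated 1, rotated 2 and rotated 3, against 81.2, 38.5 and 35.0 in static 1, static 2 and static 3. The groups overlapped, with 1 high array in each. The log2 difference was 0.15 ± 0.45, with a 95% interval of -0.85 to 1.16, and it was -0.10 without rotated 1. The second probe set, 1428983_at, was dim at 0.24 ± 0.46. Its 95% interval ran from -0.78 to 1.26. Mkx, the homeobox factor mohawk, which acts on tendon collagen, gave 89.4, 110.4 and 194.6 in rotated 1, rotated 2 and rotated 3, against 176.8, 90.1 and 277.4 in static 1, static 2 and static 3. Within each group the signals ranged over more than the difference between the groups, which was -0.27 ± 0.46 (95% interval -1.30 to 0.76), and 0.10 without static 3. The nearest profiles were Ifi203 at 0.06, Txnrd3 at 0.08 and Nck2 at 0.09 for Scx, against a spread of 0.34, and Macrod1 at 0.10, Gm19531 at 0.14 and the glucose transporter gene Slc2a3 at 0.15 for Mkx, against a spread of 0.51.

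**Figure D3:**
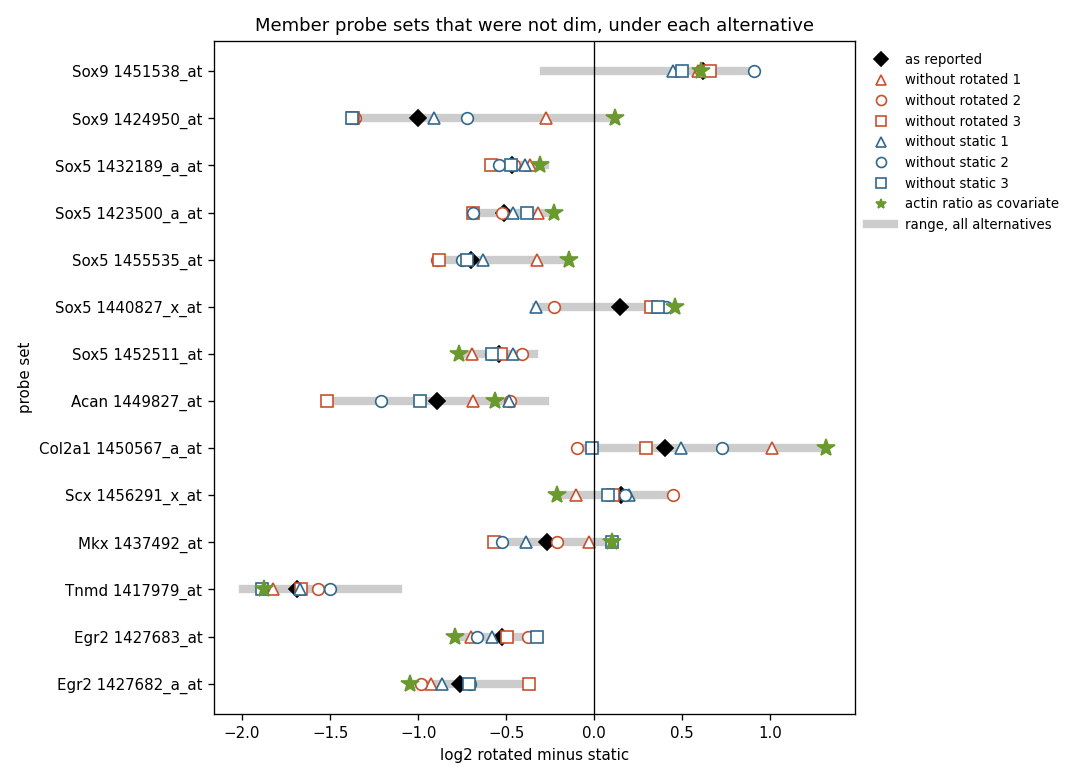
Log2 rotated minus static (horizontal axis) of the 14 member probe sets that were not dim, as reported (black diamonds), with each array left out (open markers), with the actin ratio as a covariate (stars) and over the range of all alternatives (grey bars). Tnmd, both Egr2 probe sets, Acan and 4 Sox5 probe sets stay on the lower side, while Col2a1 spans -0.10 to 1.32.

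Other genes of cartilage and tendon were read from lists chosen with earlier results of these data known, 97 measured genes of 102, each by its brightest probe set. None passed at an adjusted p under 0.05. By unadjusted p under 0.05, 14 were lower (14.4%) and 2 higher (2.06%), against 3.59% and 3.94% of 18193 genes taken the same way, and their median difference was -0.17. With median centring 8 were lower and 1 higher, with the actin covariate 7 and 0, and without rotated 1 and static 1 together 8 and 2. Without static 1 alone 8 were lower and 5 higher. Over all 45037 probe sets the lower and higher counts moved as well. They were 1553 and 1622 as reported, 1030 and 1245 with median centring and 688 and 739 with the actin covariate. Without rotated 1 and static 1 together they were 1410 and 1236, and without static 1 alone 1475 and 1479. Of these 97 genes 26 were dim. The actin ratio of 3.21 in rotated 1 stands beside these counts.

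In cartilage, 23 other matrix genes were measured, with 1 lower (4.35%) and 0 higher at an unadjusted p under 0.05 and 12 dim. Over 18193 genes 3.59% were lower and 3.94% higher at that p. Col11a1, a minor fibrillar collagen that copolymerises with type II collagen, gave 10.4, 32.2 and 43.0 in rotated 1, rotated 2 and rotated 3, against 135.6, 309.5 and 130.6 in static 1, static 2 and static 3. The groups did not overlap (log2 difference -1.92 ± 0.56, adjusted p 0.674 in limma). Hapln3, a link protein gene, differed by -0.92 ± 0.51 and Comp, cartilage oligomeric matrix protein, by -0.52 ± 0.43, while the lubricin gene Prg4 stood at 0.76 ± 0.52 and Chadl, chondroadherin-like, at 0.75 ± 0.45. The list's median was -0.19, and 0.09 without rotated 2. Among 23 signals, receptors and factors of chondrocytes 1 was lower (4.35%) at an unadjusted p under 0.05 and 0 were higher, with a median of 0.05. The median turned to -0.05 with the values as deposited and to -0.09 with array weights, and it was -0.0008 without rotated 1. Wwp2, a ubiquitin ligase whose gene Sox9 activates in cartilage, differed by -0.69 ± 0.27, with 2 of its 5 other probe sets on the higher side, Arid5a, a cofactor of Sox9, by -0.62 ± 0.50 and Hdac4, a repressor of hypertrophy, by -0.32 ± 0.41, with 1 of its 2 other probe sets higher. Ihh, the hedgehog ligand of prehypertrophic cartilage, stood at 0.73 ± 0.50, Mef2d at 0.31 ± 0.25, with both other probe sets lower, and Runx3 at 0.13 ± 0.24. Of 12 genes of hypertrophic cartilage, Adamts5, an aggrecanase, gave 1177.6, 1201.5 and 664.9 in rotated 1, rotated 2 and rotated 3, against 2890.7, 1903.2 and 1650.6 in static 1, static 2 and static 3 (-1.10 ± 0.31, adjusted p 0.674). The other 11 were not below an unadjusted p of 0.05, among them Mmp14 at 0.36 ± 0.23, Vegfa at 0.34 ± 0.34, Panx3 at -0.68 ± 0.55 and Ibsp at -0.55 ± 0.51. Mmp14, Panx3 and Ibsp each had 1 other probe set on the opposite side.

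In tendon, 23 matrix genes were measured, with 8 lower (34.8%) and 0 higher at an unadjusted p under 0.05, against 3.59% and 3.94% of 18193 genes. In value 19 of the 23 stood lower, with a median of -0.36. Thbs2, a thrombospondin, gave 1816.3, 2446.7 and 3596.8 in rotated 1, rotated 2 and rotated 3, against 6909.4, 4994.0 and 6371.5 in static 1, static 2 and static 3, without overlap (-1.31 ± 0.27, adjusted p 0.555). Fmod, fibromodulin, a collagen-binding proteoglycan of tendon, gave 185.3, 420.1 and 336.2 in rotated 1, rotated 2 and rotated 3, against 1045.1, 1476.0 and 473.7 in static 1, static 2 and static 3. The groups did not overlap (-1.50 ± 0.42), and its other 5 probe sets stood on the same side, with differences of -1.86 to -0.75 over all 6. Col12a1, a fibril-associated collagen, differed by -1.51 ± 0.47, with 1 of its 3 other probe sets on the higher side, at 0.33. On the higher side stood Tnc, tenascin-C, at 0.29 ± 0.29, Fibin at 0.0079 ± 0.60 and Col14a1 at 0.0058 ± 0.45, with 1 of the 2 other probe sets of Col14a1 lower. The median of this list was -0.09 with median centring, with 3 genes at that p, and -0.23 with the values as deposited, with 5. The count was 4 with the actin covariate, 4 without static 1, 5 without rotated 2 and 3 without the intensity trend of limma. Over all probe sets 688 were lower and 739 higher with the actin covariate, and 1475 and 1479 without static 1. They were 1453 and 1353 without rotated 2, and 1390 and 1544 without the trend. Several of the tendon matrix genes are also expressed by osteoblasts, and the list of osteoblast markers shares Col1a1 and Col1a2 with them. The osteoblast list itself had 5 of 16 genes lower at that p (31.2%) and 0 higher, against 3.59% and 3.94% of 18193 genes. It had 2 lower with median centring, 2 with the actin covariate and 3 without static 2, rotated 1 or rotated 2. Omd, osteomodulin, differed by -3.27 ± 0.75, Dlx5 by -1.08 ± 0.31 and Cdh11 by -0.51 ± 0.18. On the higher side stood Ifitm5 at 0.58 ± 0.46 and Dmp1 at 0.39 ± 0.76. Of 19 tendon signals and factors 3 were lower (15.8%) and 2 higher (10.5%) at an unadjusted p under 0.05, against 3.59% and 3.94% of 18193 genes. The counts were 6 lower and 1 higher with the replicate block and also without rotated 3, and 1 lower and 3 higher without static 1. They were 1 and 1 without static 3, without rotated 1 and with median centring, 2 and 1 without static 2 and without rotated 2, and 1 and 0 with the actin covariate. Over all 45037 probe sets 1553 were lower and 1622 higher at that p as reported. These whole-table counts were 2530 and 2474 with the replicate block, 1030 and 1245 with median centring and 688 and 739 with the actin covariate. They were 1475 and 1479 without static 1, 920 and 979 without rotated 1, and 2090 and 2144 without rotated 3. Pdgfra, a receptor of tendon progenitors, differed by -0.76 ± 0.22, with 1 of its 2 other probe sets on the higher side, and Mustn1, a small nuclear protein gene of muscle and skeleton, by -0.995 ± 0.42. The third was the dim probe set of Eya2, and Tgfbr2, the TGF-beta receptor needed for tendon formation, had an unadjusted p of 0.0573 (-0.38 ± 0.18). The 3 probe sets of Tgfbr2 ranged from -1.07 to 0.08, with 1 on the higher side. The growth factor gene Pdgfa gave 1086.3, 635.7 and 643.5 in rotated 1, rotated 2 and rotated 3, against 369.0, 370.8 and 434.5 in static 1, static 2 and static 3 (0.99 ± 0.28). Etv4, a factor downstream of FGF signals, stood at 0.96 ± 0.43 and Foxp1 at 0.31 ± 0.24, with 5 of the 7 other probe sets of Foxp1 lower.

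**Figure D4:**
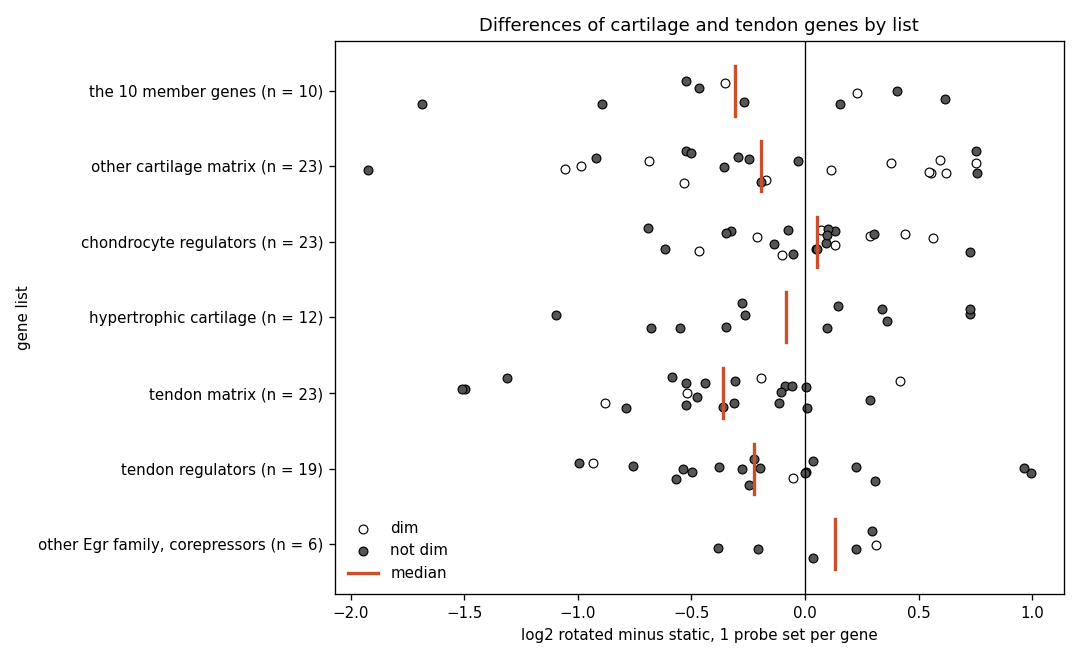
Log2 rotated minus static (horizontal axis) of each measured gene, by its brightest probe set, in the set of 10 genes and in the other lists, with open points for dim probe sets and a vertical bar at the median of each list. The tendon matrix list has its median at -0.36 and the chondrocyte regulators at 0.05.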

How the data were processed

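Total RNA of 3 rotated and 3 static samples was hybridised to 1-colour Affymetrix arrays, per the series design text. The deposited values are intensity on a linear scale, 1 per probe set and array for 45101 probe sets. Their mean after trimming 2% from each end was 500.0 on each deposited array, a scaling done before deposit. How probes were summarised, with which software and build, is not given in the sources used here, and detection calls were left unused. The number of arrays limits the precision.

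The 20th percentile, 16.6, was added to each signal before taking log2, and arrays were quantile normalized, since array medians of 70.0 to 130.1 differed by 85.9%. No filter was applied beyond dropping the 64 control probe sets. The platform annotation gave 1 symbol to 34945 probe sets, several to 932 and none to 9160, and 0 symbols needed updating through gene identifiers to those of RefSeq GRCm38.p6. The test was two-sided, from limma 3.58.1 (R 4.3.3) with lmFit and eBayes, trend = TRUE, and p-values were adjusted by Benjamini-Hochberg over all probe sets, with a threshold of 0.05. The named genes are all member probe sets, up to 3 genes per direction with the smallest p in each other list among those not dim, and the 3 nearest profiles of each member that was not dim. Col1a1, Col1a2, Sparc, Alpl, Sp7, Eya2, Sox8, Mag and Foxd3 fall outside this rule and were named after their values were seen. The members and lists were chosen with earlier results of these data known.

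Deviations from the group means correlated at 0.14, 0.16 and 0.19 between same-numbered samples and at -0.11 to -0.07 between the others. By these values, and not by any statement in the labels, the numbers may pair the samples. The fit without a block is given unless the block is named. The fit was tested on simulated data.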

Additional observations from a re-analysis of the deposited data

How the results depend on the processing

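Over 19 alternatives, 362 of 400 member values kept their direction and 38 turned. Tnmd, both Egr2 probe sets, Acan and the Sox5 probe sets 1432189_a_at, 1423500_a_at, 1455535_at and 1452511_at did not turn in any alternative run. The causes of the turns below were not tested. With the actin covariate the values were 0.10 for Mkx, -0.21 for Scx 1456291_x_at, 0.070 for Sox6 1426018_a_at, -0.073 for 1427677_a_at, 0.24 for 1434918_at and -0.16 for 1447655_x_at, and 0.12 for Sox9 1424950_at. Member probe sets at an unadjusted p under 0.05 then numbered 4, other cartilage and tendon genes 7 and all probe sets 1427. With the values as deposited they were -0.017 for Col10a1, -0.0049 for Scx 1456291_x_at, -0.18, -0.039 and -0.16 for Sox5 1432190_at, 1440827_x_at and 1459261_at, and -0.0044 for Sox6 1427677_a_at, with 2 members at that p and 1 probe set past the adjusted threshold. With array weights Sox5 1432190_at gave -0.21 and 3 members were at that p. Over all probe sets 2202 were then lower and 2261 higher at that p, against 1553 and 1622 as reported. With median centring Sox5 1432190_at gave -0.049 and 1459261_at -0.019, with 9 other list genes. Averaging the probe sets of a gene gave 0.012 for Sox6 and -0.29 for Sox9. Leaving out probe sets below the 60th percentile left 0 members and 1706 probe sets at that p, and removed Tnmd. Without rotated 1 and static 1 together, the values were -0.051 for Scx 1456291_x_at, -0.13 and -0.033 for Sox5 1440827_x_at and 1459261_at, 0.16 and -0.15 for Sox6 1426018_a_at and 1447655_x_at, and 0.077 for Sox9 1433889_at, with 3 members and 10 other list genes.

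The replicate block gave 3 members, 5004 probe sets at an unadjusted p under 0.05 and 2 past the adjusted threshold, 0 of these in a member or list gene. At that unadjusted p it moved the other cartilage and tendon genes to 17 lower and 1 higher, against 14 and 2, the tendon regulators to 6 and 1, against 3 and 2, the osteoblast markers to 7 lower, against 5, and the Egr relatives and Schwann markers to 1 lower each, against 0. Leaving out each sample in turn gave 1 to 4 members, 11 to 16 other list genes and 1899 to 4234 probe sets at that p, and a member median of -0.39 to 0.0095. It gave ranges that cross 0 of -0.10 to 1.01 for Col2a1, -0.57 to 0.10 for Mkx, -0.10 to 0.45 and -0.030 to 0.61 for Scx 1456291_x_at and 1428983_at, -0.18 to 0.39, -0.33 to 0.41 and -0.078 to 0.18 for Sox5 1432190_at, 1440827_x_at and 1459261_at, and -0.91 to 0.049 for Sox6 1434918_at. With 3 samples a group and many members near the low end of signal, values that turn were not told apart from 0. Values that kept their direction did not pass the adjusted threshold in any alternative either. All alternatives use the same 6 samples, so a kept direction is no separate evidence of a difference.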
